A study of Mus musculus with 8 samples.

Results

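The collagen genes are the gene family whose products build the fibrils, networks and filaments of the extracellular matrix. The members were taken as the probes with RefSeq mRNA accessions whose gene symbol is Col, a number, the letter a and a number. This gave 119 probes for 44 collagen genes, of 47074 mRNA probes for 20476 genes on the array. Their RNA was compared between contused and control spinal cord of female mice. The contusion group held 4 mice, aged 8 weeks, with a contusion injury, in which a blunt impact bruises the cord. The control group held 4 mice of the same sex and age, called sham-operated in the series' design text and normal cord in the sample descriptions. By their titles all 4 contusion samples date from 3 days after injury. Their descriptions give 3, 4, 5 and 6 days for replicates 1, 2, 3 and 4, so the day of 3 samples is uncertain. The number of arrays, 4 per group, limits the precision of every value. Each mouse gave 1 sample of thoracic cord around the lesion site, hybridised to 1 array.

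A collagen molecule is a triple helix of chains in which glycine recurs along the chain as Gly-X-Y. Fibril-forming collagens such as types I, III and V make scar and connective tissue, type IV makes the sheet of basement membranes under endothelium and around Schwann cells, type VI makes beaded filaments, and FACIT collagens sit on fibril surfaces. Intact spinal cord holds collagen mainly in the meninges, in vessel walls and in the nerve roots, and a contusion lesion is known to gather collagen-making perivascular and meningeal fibroblasts. Prolyl and lysyl hydroxylases modify the chains in the endoplasmic reticulum, procollagen proteinases trim them and lysyl oxidases crosslink them.

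Levels below are log2 signals relative to each array's 75th percentile, given for replicates 1, 2, 3 and 4 in that order, or as mean ± SD with n = 4 per group. Each difference is the contusion level minus the control level, in log2 units, ± limma's standard error, and adjusted p-values come from limma over all 89140 mRNAs, lncRNAs and circRNAs measured. A gene was called where its adjusted p was under 0.05. Between 72.9% and 75.4% of an array's probes exceeded background clearly by the scanner's flag, called well above background here. Slide 1 held contusion replicate 1 with control replicates 2, 3 and 4, and slide 2 held control replicate 1 with contusion replicates 2, 3 and 4, so a difference within a slide rests on 1 array of 1 group. All 9 markers of spinal cord tissue, Gfap, Snap25 and Mbp among them, were well above background on every array.

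The Gly-X-Y repeat can be read in the probes themselves. Of the 47074 mRNA probes, 4 carry GG at every 9th base of the 60 from end to end, the trace of a glycine codon (GGN) at the head of each Gly-X-Y triplet, and all 4 belong to collagen genes. Of the 37852 circRNA probes 47 do so, and all 47 lie inside collagen genes by position. Of the 65379 lncRNA probes 2 do so, and whether these lie in collagen genes was not looked up. Of these probes 5 are shown because they report RNA of the helix itself and cover both directions of change. The GGN at every 9th base is in capitals, other glycine codons are not, and the strand of the RNA is as written in the array files.
Col5a3 mRNA: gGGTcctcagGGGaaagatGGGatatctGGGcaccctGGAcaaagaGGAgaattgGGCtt
Col3a1 circRNA, chr1:45339359-45340308, plus strand: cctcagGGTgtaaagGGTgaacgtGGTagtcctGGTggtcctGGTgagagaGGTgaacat
Col4a5 circRNA, chrX:141626831-141656870, plus strand: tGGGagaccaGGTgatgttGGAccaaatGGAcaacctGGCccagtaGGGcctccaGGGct
Col19a1 circRNA, chr1:24337898-24461529, minus strand: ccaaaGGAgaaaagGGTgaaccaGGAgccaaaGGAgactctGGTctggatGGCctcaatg
Col5a1 circRNA, chr2:27974693-27980516, plus strand: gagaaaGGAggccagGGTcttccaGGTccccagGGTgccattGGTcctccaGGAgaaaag

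The 5 shown are called ones. Over the whole set, 1 of the 4 mRNA probes was called, higher, and of the 46 circRNAs measured 6 were called higher and 5 lower. Of all circRNAs 42% were called, 16.2% higher and 25.7% lower, and of all mRNAs, each through its brightest probe, 51.2%. The first 3 of the RNAs shown were higher in contused cord and the other 2 lower. The Col5a3 mRNA probe, placed by the files at chr9:20590066-20590795 of mm9, had 0.72 ± 0.18 (adjusted p = 0.0139 in a limma fit of each probe). The Col3a1 and Col4a5 circRNAs had 0.77 ± 0.15 (adjusted p = 0.00466) and 1.13 ± 0.22 (adjusted p = 0.00453). The Col19a1 and Col5a1 circRNAs had -1.01 ± 0.08 (adjusted p = 0.000141) and -0.57 ± 0.09 (adjusted p = 0.00134). The build of the circRNA positions is not given in the sources used here.

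Of the 44 collagen genes, 40 passed the filter on dim probes (which asks for 4 or more arrays well above background) and 39 of them were well above background on all 8. After contusion 14 of the 40 were called higher and 8 lower by limma, and 18 were not called. Over all 18198 mRNAs tested, 25.8% were called higher and 25.4% lower. The collagen genes were thus called about as often as any mRNA, 55.0% against 51.2%, and their median difference was 0.61, against 0.00 over all mRNAs. The called increases were Col18a1, Col4a1, Col4a2, Col4a5, Col5a1, Col5a2, Col5a3, Col2a1, Col6a3, Col7a1, Col12a1, Col16a1, Col20a1 and Col28a1, and 11 of them were at least 2-fold. The called decreases were Col19a1, Col25a1, Col24a1, Col9a2, Col11a2, Col23a1, Col26a1 and Col22a1, and only Col19a1 reached 2-fold. In bulk tissue, a change in the number of cells of a type and a change in RNA per cell cannot be told apart. The groups did not overlap for 19 of the 40 genes (51.8% over all mRNAs). The sign was the same in both slides for each of the 22 called genes, and the median over the 40 was 0.55 within slide 1 and 0.72 within slide 2. With slide as a block 18 of the 22 remained called.

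**Figure D1:**
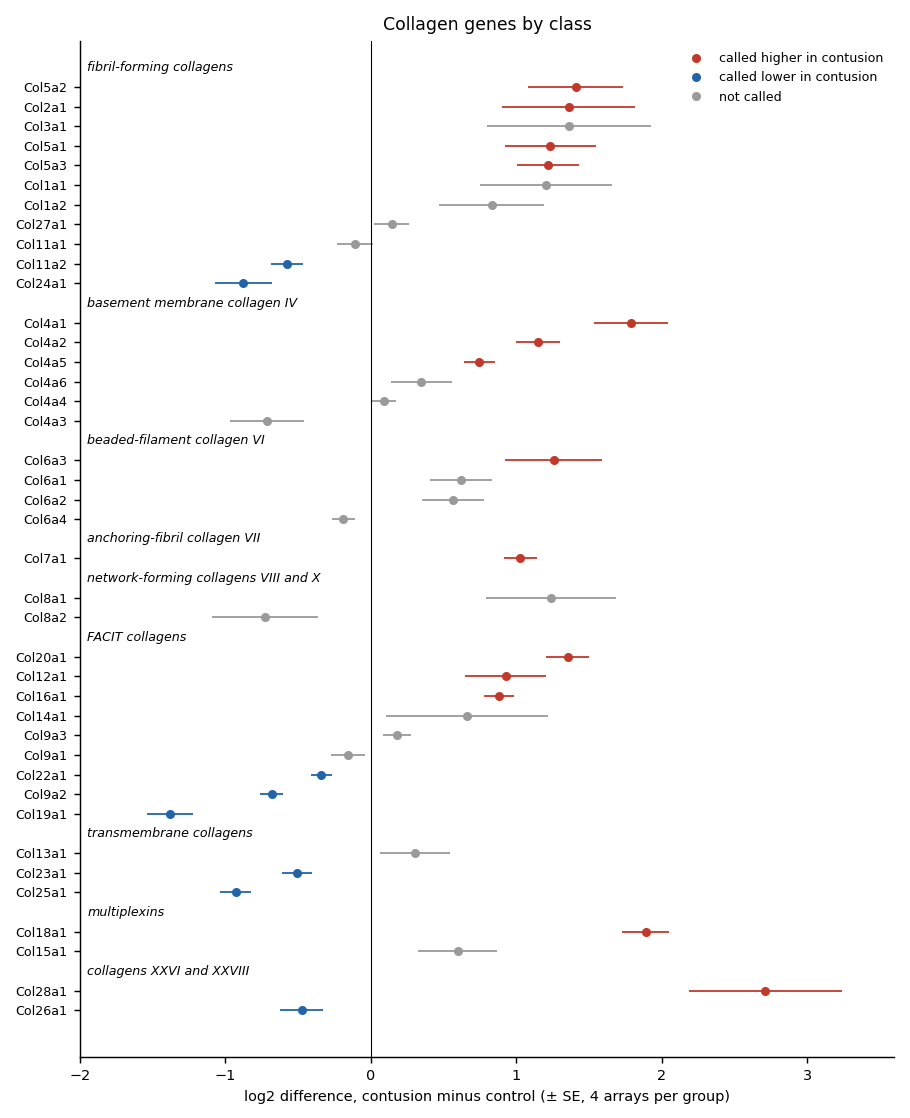
Log2 difference (contusion minus control, x axis, ± SE, 4 arrays per group) of the 40 measured collagen genes (y axis), grouped by class and sorted within it. Red points were called higher, blue points lower and grey points were not called; Col28a1 at 2.71 and Col19a1 at -1.38 are the ends of the range, and Col1a1, Col1a2 and Col3a1 lie to the right of 0 with wide errors.

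Among the 11 fibril-forming collagens, 4 were called higher and 2 lower, beside 25.8% and 25.4% of all mRNAs, and the median difference was 1.20. All 3 measured chains of type V, which starts type I fibrils and regulates their width, were called higher. Col5a2 (NM_007737, chromosome 1) had levels of 1.59, 1.66, 1.90 and 1.95 on the contusion arrays, against 0.64, -0.31, 1.28 and -0.14 on the control arrays. Every contusion array was above every control array, and Col5a2 was 2.65-fold higher (1.41 ± 0.33, adjusted p = 0.01). Col5a1 (NM_015734, chromosome 2) had 1.75, 1.87, 2.10 and 2.21 on the contusion arrays, against 0.83, 0.07, 1.68 and 0.43 on the control arrays. The groups did not overlap here either (2.35-fold, 1.23 ± 0.31, adjusted p = 0.0148, or 0.0557 with slide as a block). Col5a3 (NM_016919, chromosome 9) was 2.32-fold higher, at 3.26 ± 0.29 in contusion and 2.04 ± 0.39 in control cord (1.22 ± 0.21, adjusted p = 0.00262).

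The chains of types I and III, the bulk of scar fibrils in skin and other organs, had positive differences but were not called. Col1a1 (NM_007742, chromosome 11) had levels of 5.40, 5.20, 5.66 and 5.87 on the contusion arrays, against 4.39, 3.03, 5.50 and 4.41 on the control arrays. Control replicate 3 lay inside the contusion range and control replicate 2 far below it, and the difference was 1.20 ± 0.45 (adjusted p = 0.0681). Col1a2 (NM_007743, chromosome 6), the partner chain of type I, had 6.20, 6.20, 6.51 and 6.59 on the contusion arrays, against 5.55, 4.54, 6.53 and 5.54 on the control arrays. Its difference was 0.83 ± 0.36 (adjusted p = 0.106), and control replicate 3 lay within the contusion values again. Col3a1 (NM_009930, chromosome 1), the chain of type III, had 5.18, 4.68, 5.34 and 5.44 on the contusion arrays, against 3.90, 2.63, 5.53 and 3.13 on the control arrays. Here control replicate 3 was above all 4 contusion arrays (1.36 ± 0.56, adjusted p = 0.092). The SD of Col3a1 was 0.34 among contusion arrays and 1.27 among controls.

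Col2a1 (NM_031163, chromosome 15), the chain of cartilage collagen, was the called fibrillar gene nearest the threshold. Its levels were 1.00, 0.71, 1.15 and 1.47 on the contusion arrays, against 0.01, -1.27, 1.03 and -0.87 on the control arrays. Control replicate 3 overlapped the contusion arrays (1.36 ± 0.46, adjusted p = 0.0465, or 0.132 with slide as a block). Without contusion replicate 4 the adjusted p was 0.111. The size also depended on the probe. Another Col2a1 probe, at chr15:97806505-97806564 of mm9, overlaps the chosen one at chr15:97806485-97806544. It had 0.52 ± 0.09 (adjusted p = 0.00174 over single probes), with every contusion array above every control array. The last Col2a1 probe had 0.63 ± 0.32 and was not called (adjusted p = 0.148). Of the 9 cartilage and bone markers 2, Matn1 and Runx2, were called higher and none lower, beside 25.8% and 25.4% of all mRNAs. The median difference of the list was 0.03. Its mean level was -1.62, -1.38, -1.22 and -1.12 on the contusion arrays, against -1.23, -1.57, -1.07 and -1.03 on the controls. The part of such cells in the Col2a1 result was not tested. Col24a1 (NM_027770, chromosome 3), a minor fibrillar chain, fell by 0.88 ± 0.20 (adjusted p = 0.00815), with levels of -0.84, -0.34, -0.35 and -0.98 on the contusion arrays, against 0.00, 0.17, 0.67 and 0.15 on the control arrays. Col11a2 (NM_009926, chromosome 17), a chain of type XI, fell by 0.58 ± 0.11 (adjusted p = 0.0042). The groups did not overlap for either gene on the chosen probe. Another Col11a2 probe had -1.14 ± 0.15 (adjusted p = 0.000644 over single probes), and the last had -0.10 ± 0.18 and was not called (0.699). One Col24a1 probe, with -0.44 ± 0.18, was not called either (adjusted p = 0.0844 over single probes). Col11a1 (-0.11 ± 0.12, adjusted p = 0.527) and Col27a1 (0.14 ± 0.12, adjusted p = 0.383) are also cartilage fibril chains and were not called.

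**Figure D2:**
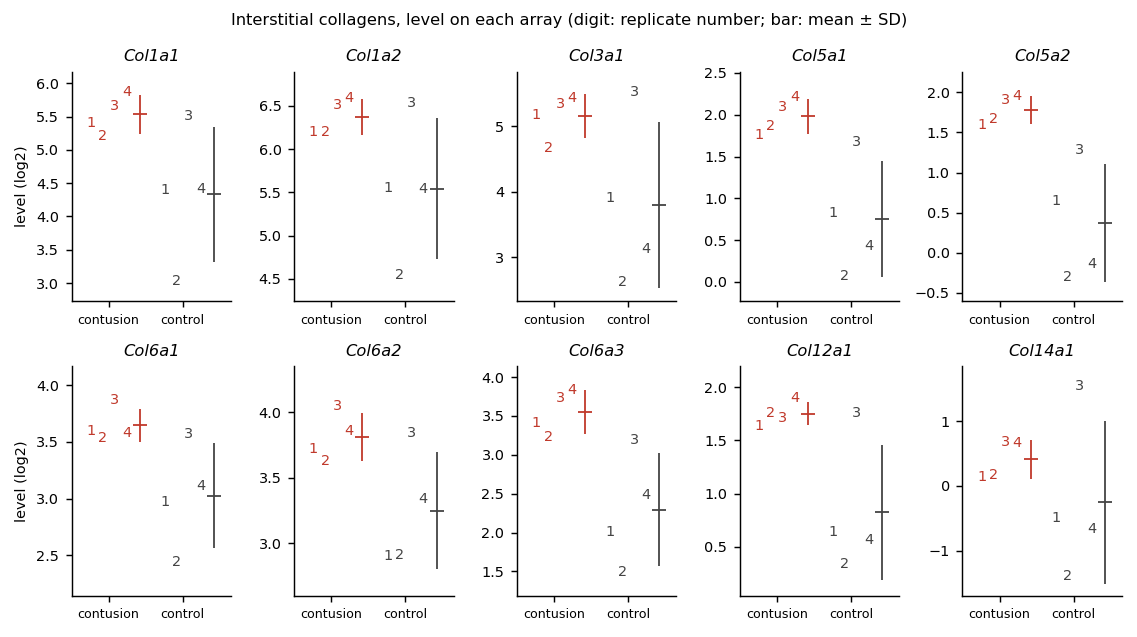
Level (log2 signal relative to the array's 75th percentile, y axis) of 10 interstitial collagens on each contusion and control array (x axis). Digits are replicate numbers and bars the mean ± SD of 4 arrays; control replicate 3 is the highest control in each panel, and control replicate 2 the lowest except in Col6a2.

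The controls differed among themselves in many collagen genes. Control replicate 3 was the highest and control replicate 2 the lowest control for 16 of the 40 collagen genes, against 5.56% of all mRNAs, and 6 of the 16 were fibril-forming. The SD was larger among controls than among contusion arrays for 31 of the 40 genes (66.1% of all mRNAs). The same order of controls was seen in 4 of the 5 markers of Schwann cells, the myelinating cells of nerve roots (Prx, Egr2, Pmp2 and Ncmap). Sox10, which oligodendrocytes also express, did not share it, with 5.13, 5.33, 5.18 and 5.22 on the controls. Prx, a protein of peripheral myelin, had 4.56, 4.96, 4.90 and 4.06 on the contusion arrays, against 5.01, 1.48, 6.17 and 4.44 on the control arrays, highest on control replicate 3 and lowest on control replicate 2. None of the 5 Schwann markers was called, and their mean level was 2.37, 2.58, 2.56 and 2.01 on the contusion arrays, against 2.22, 0.39, 3.28 and 1.90 on the controls. The mean of 10 fibroblast and meningeal markers was 2.82, 2.58, 2.97 and 2.54 on the contusion arrays, against 1.95, 1.56, 2.94 and 2.18 on the controls. Of the 10, 3 were called higher, beside 25.8% of all mRNAs. The part of roots or meninges in the collagen results was not tested.

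Leaving out control replicate 3 raised the called increases to 22 of 40 and left 7 decreases. The 8 genes added were Col1a1 (1.59 ± 0.35, adjusted p = 0.012), Col1a2 (1.16 ± 0.26, 0.0125), Col3a1 (1.94 ± 0.31, 0.00323), Col6a1, Col6a2, Col8a1, Col14a1 and Col15a1. Their adjusted p-values in that fit lay between 0.00323 and 0.0125. Without control replicate 2, the lowest control, 12 increases were called, and without both replicates 22 increases and 5 decreases, an alternative chosen after seeing the data. Skeletal muscle markers stood apart in another way, with a mean of 4.15, 2.39, 0.20 and 0.20 on the contusion arrays, against 1.31, -0.46, 0.65 and -0.02 on the controls. Without contusion replicates 1 and 2, the arrays with most muscle RNA, 11 collagen increases and 8 decreases were called.

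Collagen IV, the network of basement membranes, had 3 of 6 chains called higher and none lower, beside 25.8% and 25.4% of all mRNAs. Col4a1 (NM_009931, chromosome 8) had levels of 3.47, 3.74, 3.35 and 3.72 on the contusion arrays, against 2.22, 1.10, 2.23 and 1.55 on the control arrays. It was 3.46-fold higher with no overlap (1.79 ± 0.25, adjusted p = 0.000966), and 1.84 and 1.38 within slides 1 and 2. Col4a2 (NM_009932), which joins with Col4a1 in the common vessel network, had 5.76, 6.07, 5.78 and 6.20 on the contusion arrays, against 4.86, 4.57, 5.13 and 4.64 on the control arrays. It was 2.22-fold higher (1.15 ± 0.15, adjusted p = 0.000675). Col4a5 (NM_001163155, chromosome X) was 1.68-fold higher, at 1.27 ± 0.10 in contusion and 0.52 ± 0.19 in control cord (adjusted p = 0.000927). These 3 genes stayed called in each of the 19 refits.

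The remaining type IV chains were not called. Col4a3 (NM_007734, chromosome 1), known from kidney glomerulus, had -2.62, -2.93, -2.88 and -3.35 on the contusion arrays, against -2.66, -2.62, -2.01 and -1.63 on the control arrays. The groups overlapped and the difference of -0.71 ± 0.25 was just outside the threshold (adjusted p = 0.0556). Col4a4, its partner chain, had 0.09 ± 0.08 (adjusted p = 0.411), which rests on 1 probe with levels from 1.46 to 1.80. The other Col4a4 probe read from -7.73 to -6.48 and was not well above background on any array. Which of these probes reports Col4a4 was not tested. Col4a6 (NM_053185, chromosome X) had 0.35 ± 0.21 through its brightest probe (adjusted p = 0.231), at 0.88, 1.71, 1.64 and 1.56 on the contusion arrays, against 1.45, 0.91, 0.85 and 1.19 on the control arrays. Its other 3 probes were called higher, with differences of 1.21 ± 0.25, 1.36 ± 0.13 and 1.44 ± 0.18 (adjusted p = 0.00477, 0.000143 and 0.000406 over single probes). The mean of its 4 probes was called higher too (1.09, adjusted p = 0.000545). On the probe at chrX:137599990-137600049 of mm9 the contusion arrays read 0.78, 0.35, 0.58 and 0.53, against -0.84, -1.07, -0.58 and -0.74 on the controls, with no overlap. The brightest probe lies at chrX:137601433-137601491, so the call for Col4a6 depends on the probe.

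Most of the listed macrophage and vessel markers were called higher, beside 25.8% of all mRNAs. All 6 macrophage markers were called higher, with means of 4.67, 4.50, 4.62 and 4.81 on the contusion arrays, against 2.44, 1.69, 2.20 and 0.55 on the controls. Of 8 endothelial markers 6 were called higher and none lower, with means of 3.07, 3.20, 3.06 and 3.15 on the contusion arrays, against 2.44, 2.18, 2.61 and 2.24 on the controls. Flt1 (-0.09 ± 0.11) and Slco1a4 (-0.23 ± 0.09) were not called. Of 10 markers of pericytes and smooth muscle 6 were called higher, with means of 3.41, 3.38, 3.44 and 3.36 on the contusion arrays, against 2.60, 2.45, 2.86 and 2.56 on the controls. Rgs5, Kcnj8, Vtn and Myh11 of that list were not called. The part of these cell types in the collagen differences was not tested.

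Col18a1 (NM_001109991, chromosome 10), a heparan sulfate carrier of basement membranes whose end is the endostatin fragment, had the smallest adjusted p of the family. Its levels were 3.57, 3.24, 3.58 and 3.64 on the contusion arrays, against 1.58, 1.46, 2.05 and 1.37 on the control arrays. It was 3.70-fold higher (1.89 ± 0.16, adjusted p = 0.000154), with 1.94 and 1.90 within slides 1 and 2. The other 2 probes carry NM_009929, a transcript with another start, and had 2.01 ± 0.20 and 2.07 ± 0.22, so the 3 probes rose by close amounts. Whether any of these probes reads only 1 of the transcripts was not tested, so the values do not separate the transcripts. Col15a1, the other multiplexin and a basement membrane collagen of muscle and vessels, had 2.45, 2.22, 2.60 and 2.53 on the contusion arrays, against 1.84, 1.14, 2.60 and 1.83 on the control arrays (0.60 ± 0.27, adjusted p = 0.117). The control range of Col15a1 reached the contusion arrays through replicate 3.

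**Figure D3:**
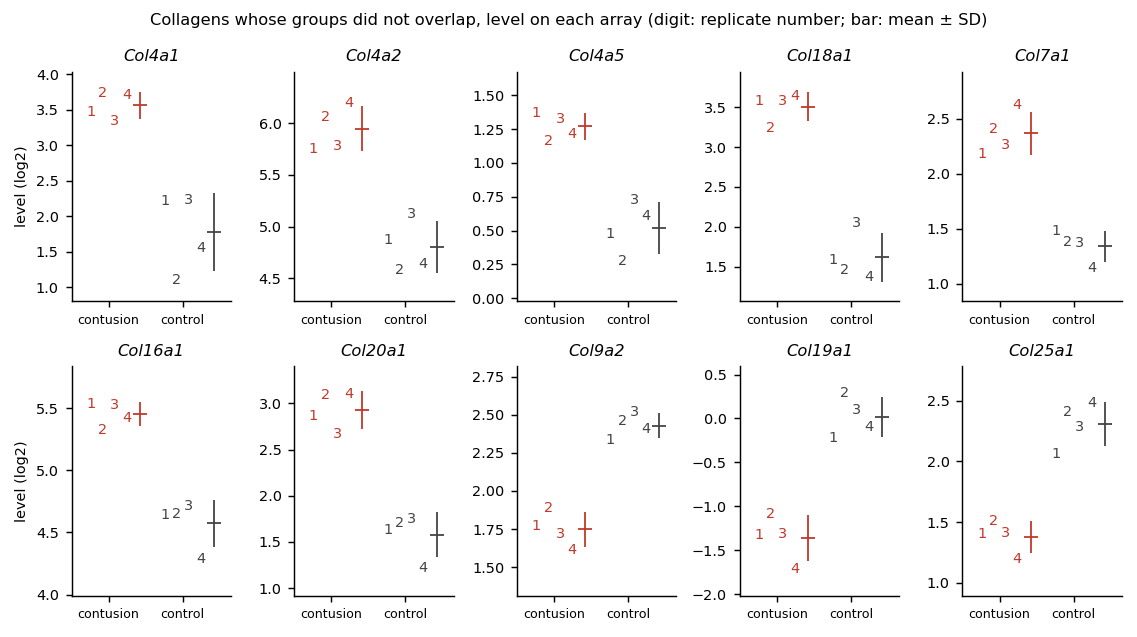
Level (log2 signal relative to the array's 75th percentile, y axis) of 10 collagens on each contusion and control array (x axis). Digits are replicate numbers and bars the mean ± SD of 4 arrays; all 4 contusion arrays lie above the controls for the first 7 genes and below them for Col9a2, Col19a1 and Col25a1.

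Collagen VI, a filament that links cells to the matrix and is abundant in fibroblast and nerve sheath matrix, had 4 measured chains. Col6a3 (NM_001243008, chromosome 1) had 3.41, 3.23, 3.73 and 3.84 on the contusion arrays, against 2.01, 1.49, 3.19 and 2.49 on the control arrays. It was 2.39-fold higher with no overlap (1.26 ± 0.34, adjusted p = 0.0185), and 1.02 and 1.59 within slides 1 and 2. Without contusion replicate 4 the adjusted p was 0.0513. Col6a1 (NM_009933, chromosome 10) had 3.60, 3.54, 3.86 and 3.58 on the contusion arrays, against 2.97, 2.44, 3.57 and 3.11 on the control arrays. It was the uncalled member nearest the threshold (0.62 ± 0.21, adjusted p = 0.0511). Col6a2 (NM_146007), its neighbour on chromosome 10, had 3.72, 3.62, 4.05 and 3.85 on the contusion arrays, against 2.90, 2.91, 3.84 and 3.34 on the control arrays (0.56 ± 0.21, adjusted p = 0.068). For both, contusion levels overlapped only control replicate 3. Col6a4 had -0.19 ± 0.08 (adjusted p = 0.0939), and Col6a5 and Col6a6 did not pass the filter.

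Col7a1 (NM_007738, chromosome 9), the anchoring fibril chain known from skin, had 2.18, 2.40, 2.26 and 2.62 on the contusion arrays, against 1.48, 1.38, 1.37 and 1.14 on the control arrays. It was 2.04-fold higher (1.03 ± 0.11, adjusted p = 0.000355) with no overlap. Of the network-forming type VIII chains, which line vessels and the eye's Descemet membrane, Col8a1 (NM_007739, chromosome 16) had 3.61, 3.50, 4.03 and 4.42 on the contusion arrays, against 2.70, 1.84, 3.96 and 2.10 on the control arrays. The difference of 1.24 ± 0.44 was not called (adjusted p = 0.0578), and control replicate 3 again lay within the contusion values. Col8a2 had -0.73 ± 0.37 (adjusted p = 0.157), with -1.17 within slide 1 and 0.18 within slide 2. Col10a1, the chain of growth cartilage, did not pass the filter.

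Of the 9 FACIT collagens, 3 were called higher and 3 lower, beside 25.8% and 25.4% of all mRNAs. Col20a1 (NM_028518, chromosome 2) had 2.87, 3.09, 2.66 and 3.10 on the contusion arrays, against 1.63, 1.71, 1.75 and 1.22 on the control arrays. It had the largest called increase of the class, 2.56-fold (1.35 ± 0.15, adjusted p = 0.00031). Col16a1 (NM_028266, chromosome 4), a fibroblast and smooth muscle chain, was 1.84-fold higher, at 5.45 ± 0.10 in contusion and 4.57 ± 0.19 in control cord (adjusted p = 0.000456). Col12a1 (NM_001290308, chromosome 9), which coats type I fibrils and is known in zebrafish as part of the matrix that regrowing spinal axons cross, had 1.64, 1.76, 1.71 and 1.90 on the contusion arrays, against 0.64, 0.34, 1.76 and 0.56 on the control arrays. Control replicate 3 stood among the contusion arrays (0.93 ± 0.28, adjusted p = 0.0304, or 0.0712 with slide as a block), and 11 of the 19 refits gave no call.

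The FACIT decreases were led by Col19a1 (NM_007733, chromosome 1), a chain made by a subset of neurons in mouse brain. Its levels were -1.33, -1.09, -1.31 and -1.72 on the contusion arrays, against -0.22, 0.29, 0.09 and -0.10 on the control arrays. It was 2.60-fold lower with no overlap (-1.38 ± 0.16, adjusted p = 0.000364), with -1.42 and -1.16 within slides 1 and 2, and all 4 of its probes were called lower. Col9a2 (NM_007741, chromosome 4), a chain of cartilage type IX, was 1.60-fold lower, at 1.75 ± 0.12 in contusion and 2.43 ± 0.08 in control cord (adjusted p = 0.000402). Its partner chains Col9a1 (-0.16 ± 0.12, adjusted p = 0.323) and Col9a3 (0.18 ± 0.10, adjusted p = 0.184) were not called. Col22a1, a chain of the muscle and tendon junction, fell by 0.34 ± 0.07 (adjusted p = 0.00621). Col14a1, a fibril coat of tendon and skin, had 0.13, 0.17, 0.68 and 0.66 on the contusion arrays, against -0.50, -1.39, 1.54 and -0.66 on the control arrays. Control replicate 3 was above every contusion array and replicate 2 below every other array (0.66 ± 0.56, adjusted p = 0.388).

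Of the 3 measured transmembrane collagens 2 were called lower and none higher, beside 25.4% and 25.8% of all mRNAs. Col25a1 (NM_029838, chromosome 3), a neuronal chain known from amyloid plaques and from motor innervation of muscle, had 1.41, 1.51, 1.41 and 1.19 on the contusion arrays, against 2.06, 2.41, 2.28 and 2.48 on the control arrays. It was 1.90-fold lower (-0.93 ± 0.11, adjusted p = 0.000426), and its 4 probes, for NM_029838 and NM_198711, were all called lower. Col23a1 (NM_153393, chromosome 11) was 1.42-fold lower (-0.51 ± 0.11, adjusted p = 0.0059). Col13a1, a chain of the neuromuscular junction, had 0.30 ± 0.24 (adjusted p = 0.364, or 0.0394 with slide as a block). Col17a1, the hemidesmosome chain, did not pass the filter. Of the 9 spinal cord tissue markers 4 were called lower and 2 higher, beside 25.4% and 25.8% of all mRNAs. Those lower were the neuronal genes Snap25, Rbfox3, Chat and Slc6a5, with differences of -0.55 ± 0.10, -0.97 ± 0.09, -0.77 ± 0.07 and -0.84 ± 0.09. Isl1, also neuronal, was not called (-0.35 ± 0.21, adjusted p = 0.243), and Gfap and Aqp4 were the 2 called higher. The part of neuron loss in the falls of Col19a1 and Col25a1 was not tested.

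Col28a1 (NM_001037865, chromosome 6), known in mouse from the surface of Schwann cells in nerve roots and dorsal root ganglia, was called higher, but its size depended on the background correction. Its levels were -2.30, -1.78, -1.92 and -2.15 on the contusion arrays, against -3.98, -5.67, -3.48 and -5.87 on the control arrays. All 4 contusion arrays were well above background but only 2 of the 4 control arrays were. The difference was 2.71 ± 0.52 (adjusted p = 0.00417), or 2.62 with the dim control arrays set to the lowest signal that was well above background. After normexp background correction and quantile normalization it was 0.74, below the 1.89 of Col18a1 in that fit. Col26a1 (NM_024474, chromosome 5), a reproductive tract chain, fell by 0.48 ± 0.14 (adjusted p = 0.0313, or 0.0961 with slide as a block), with levels of 1.24, 1.01, 0.96 and 0.76 on the contusion arrays, against 1.20, 1.63, 1.72 and 1.32 on the control arrays. Contusion replicate 1 overlapped the controls, and 10 of the 19 refits gave no call.

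Of 39 genes with several kept probes, 2 (Col4a3 and Col11a1) had probe differences of both signs and none had probes called in opposite directions. In 8 genes the probes fell on both sides of the threshold. Col5a2 had 1.41 ± 0.33 on the probe at chr1:45433621-45433680 of mm9 and 0.13 ± 0.18 on the other (adjusted p = 0.583 over single probes). Col5a1 had 0.44 ± 0.34 and 0.60 ± 0.27 on its other 2 probes, neither called. For Col6a3 all 4 probes were called higher. With the mean of its probes Col5a2 was still called (0.77, adjusted p = 0.0365) and Col5a1 was not (0.76, adjusted p = 0.0746).

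Several collagen genes lie next to each other in pairs, and 8 neighbouring pairs of protein-coding collagen genes are in the RefSeq table. Of these pairs, only Col4a1 and Col4a2 were both called in the same direction. The bases before the transcription start were read for 35 collagen genes (38 RefSeq windows of GRCm38.p6, 250 bases each). CCAAT or its reverse ATTGG was in 13 of the 38 (34.2%), against 33.8% of all 32851 windows, and GGGCGG or CCGCCC, the GC box, in 22 (57.9%), against 32.7%. Among windows of called increases 7 of 12 held CCAAT or ATTGG, among those of called decreases 1 of 6 and among those of genes not called 4 of 16. The GC box was in 7 of 12, 4 of 6 and 9 of 16. Below are the windows before the long Col18a1 transcript (chr10:77166531-77166780, minus strand) and before Col19a1 (chr1:24587438-24587687, minus strand), shown as the genes at the ends of the well-measured range, with both motifs in capitals. The Col18a1 window holds 1 CCAAT match and 3 GC boxes, and the Col19a1 window neither. The window before the other Col18a1 start (chr10:77113706-77113955, not printed) also holds neither. A match is a run of letters and not a shown binding site.
Col18a1: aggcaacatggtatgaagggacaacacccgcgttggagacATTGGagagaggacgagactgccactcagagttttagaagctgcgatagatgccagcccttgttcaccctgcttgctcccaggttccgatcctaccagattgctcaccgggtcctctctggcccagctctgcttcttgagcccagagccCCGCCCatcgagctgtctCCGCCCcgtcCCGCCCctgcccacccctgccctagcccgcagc
Col19a1: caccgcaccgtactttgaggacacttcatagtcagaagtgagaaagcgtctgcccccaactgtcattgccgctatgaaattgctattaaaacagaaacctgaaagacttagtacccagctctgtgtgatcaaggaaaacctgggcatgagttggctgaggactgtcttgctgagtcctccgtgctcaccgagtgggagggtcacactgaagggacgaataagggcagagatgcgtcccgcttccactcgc

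Of 72 partner genes in 8 lists, 71 were measured, 43 were called higher and 4 lower, beside 25.8% and 25.4% of all mRNAs, and the median difference was 0.63. Of the 13 hydroxylases and glycosyltransferases 10 were called higher and none lower. Plod3, a lysyl hydroxylase with glycosyltransferase activity, was 1.83-fold higher (adjusted p = 9.94e-05) and P4hb, the shared subunit of prolyl hydroxylases, 1.80-fold (0.000412). In folding and secretion 5 of 7 were called higher. Hspa5, the chaperone BiP, was 1.89-fold higher (adjusted p = 0.000237) and Ppib, a cyclophilin, 1.59-fold (0.000452), while Pdia3, a disulfide isomerase, was 1.35-fold lower (0.0103). The collagen chaperone gene Serpinh1 had 3.97, 3.97, 4.38 and 4.49 on the contusion arrays, against 2.76, 2.20, 3.43 and 2.59 on the control arrays, with no overlap (1.46 ± 0.25, adjusted p = 0.00257).

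Of the 8 propeptide processing genes 2 were called higher and 2 lower, close to the 25.8% and 25.4% of all mRNAs. Bmp1, the C-proteinase of fibrillar procollagens, was 2.60-fold higher (adjusted p = 8.27e-05) and Adamts14, an N-proteinase, 2.90-fold (0.000219). Adamts3, another N-proteinase, was 1.80-fold lower (adjusted p = 0.000436) and Tll1, a relative of Bmp1, 1.42-fold lower (0.0281). Of the 6 crosslinking genes 5 were called higher. Pxdn, which crosslinks type IV networks, was 1.75-fold higher (adjusted p = 0.00022) and Loxl4, a lysyl oxidase, 2.30-fold (0.000426). Lox itself, the main fibril crosslinker, had 1.67, 2.08, 1.83 and 2.22 on the contusion arrays, against 0.64, -1.26, 2.47 and 0.46 on the control arrays. The controls of Lox spanned the contusion values (1.38 ± 0.66, adjusted p = 0.138).

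Of 11 collagen receptors 7 were called higher and none lower, among them Itgb1, the integrin beta chain shared by collagen integrins (1.94-fold, adjusted p = 0.000193), and Lair1, an inhibitory receptor of leukocytes (1.87-fold, 0.000312). Of 12 other basement membrane genes 9 were called higher and none lower, among them Nid2, a nidogen (2.45-fold, adjusted p = 0.000462), and Lamc1, a laminin chain (1.72-fold, 0.000804). Of 6 collagen-degrading proteases 3 were called higher and Mmp9 lower. Mmp14, a membrane-bound collagenase, was 2.37-fold higher (adjusted p = 0.000822), Mmp2, a gelatinase, 1.91-fold higher (0.011) and Mmp9, the other gelatinase, 1.47-fold lower (0.0149). Of 8 measured small leucine-rich proteoglycans, which bind fibril surfaces, 2 were called higher and none lower, beside 25.8% and 25.4% of all mRNAs. The 2 were Bgn (2.19-fold, adjusted p = 0.0145) and Lum (3.52-fold, 0.0228), and Kera was too dim to measure.

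**Figure D4:**
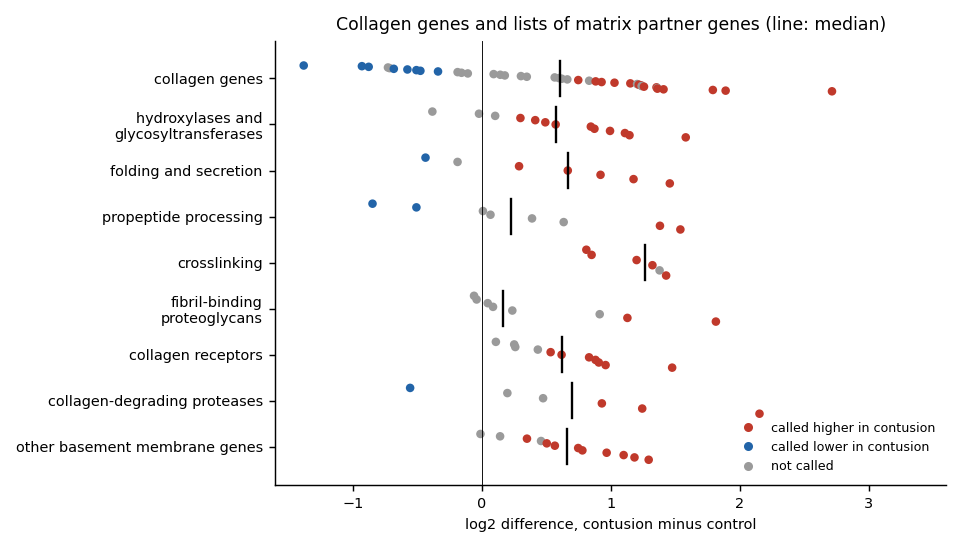
Log2 difference (contusion minus control, x axis) of each measured collagen gene and of each gene in 8 lists of collagen partners (y axis). Red points were called higher, blue points lower and grey points were not called, and the black line is the list's median; the crosslinking list has the highest median, 1.26, and the proteoglycans the lowest, 0.16.

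The array also carries 122 circRNAs, closed RNA rings made by back-splicing, whose positions lie inside 1 gene, a collagen gene, in 21 collagen genes. Of all circRNA positions 97.4% lay inside a protein-coding gene of GRCm38.p6, against 35.9% after a shift of 1000000 bases. Where the strand of the gene was at hand, 95 of 97 were on it. Of the 117 measured, 26 were called higher and 21 lower, beside 16.2% and 25.7% of all 35615 circRNAs (42% in either direction), and the median difference was 0.52, against -0.05 over all circRNAs. The sign was that of the gene's mRNA for 108 of the 117 and for 46 of the 47 called. The labels name no step that removes linear RNA, and the part of linear collagen RNA in these signals was not tested. Probes of 45 of the 117 share a run of at least 30 bases with another probe of the same gene, so circRNAs of one gene are not independent.

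The count of circRNA increases moved with single arrays. Without control replicate 3, 64 collagen circRNAs were called higher, and without contusion replicate 3, contusion replicate 4 or control replicate 4 the counts were 9, 10 and 9. Without control replicate 2 the count was 12, and with slide as a block it was 9. The decreases held at 20 to 23 whichever single array was left out, and at 19 with the block.

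The decreases were mostly in Col19a1, where 16 of 19 circRNAs were called lower and none higher. Of these, 9 share the splice end at position 24575459 of chromosome 1, and all 9 were called lower, by 0.59 to 1.42. Probes of 13 of the 19 share 30 or more bases, at most 55 of 60. The circRNA at chr1:24559654-24575459 had the largest fitted decrease, with levels of -5.66, -5.01, -5.63 and -5.85 on the contusion arrays, against -4.33, -4.27, -3.85 and -4.05 on the control arrays. It was well above background on all 4 control arrays but only 1 contusion array, so it passed the filter through the controls (-1.42 ± 0.19, adjusted p = 0.000742). With dim arrays set to the lowest signal well above background the difference was -1.08. Next were chr1:24508184-24575459 (-1.29 ± 0.31, adjusted p = 0.0107, -1.15 with that floor) and chr1:24337898-24575459 (-1.24 ± 0.20, adjusted p = 0.00155, -1.20 with it), so these 3 have no firm order. Col25a1 had 3 of 7 circRNAs called lower and Col23a1 its only one.

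The largest called increase was a Col18a1 circRNA at chr10:77054234-77055767, with levels of -1.76, -1.60, -1.61 and -1.73 on the contusion arrays, against -2.86, -3.72, -2.83 and -3.29 on the control arrays. The arrays did not overlap (2.83-fold, 1.50 ± 0.19, adjusted p = 0.000585). A Col5a2 circRNA at chr1:45400821-45442868 had 1.25 ± 0.38 (adjusted p = 0.0304), and one in Col1a1 at chr11:94950765-94951195 had 1.18 ± 0.38 (adjusted p = 0.0386). The Col1a1 circRNA is named on the minus strand, while the other 5 of Col1a1 are on the plus strand. With slide as a block neither the Col5a2 nor the Col1a1 circRNA was called (adjusted p = 0.084 and 0.11). All 4 circRNAs of Col12a1 were called higher, as were 7 of 11 in Col5a2, 3 of 6 in Col4a5 and 3 of 5 in Col6a3. Col3a1 had 19 measured, all with positive differences and 1 called. In Col5a1 4 of 24 were called higher, and the helix-coding circRNA printed above went the other way: it had 1.26, 1.59, 1.37 and 1.26 on the contusion arrays, against 1.92, 1.92, 1.90 and 2.02 on the control arrays, with no overlap, while the Col5a1 mRNA was higher.

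**Figure D5:**
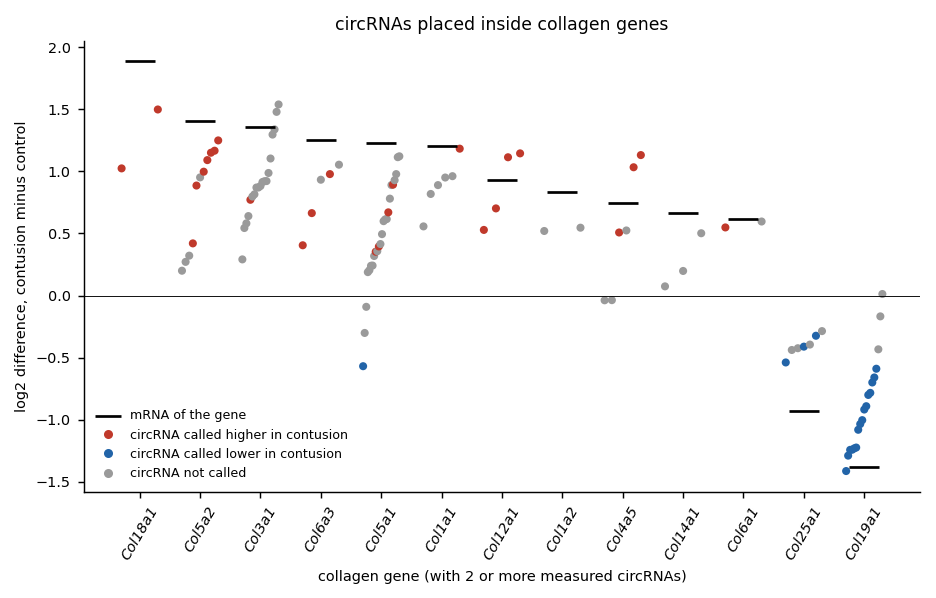
Log2 difference (contusion minus control, y axis) of each measured circRNA inside a collagen gene (dots), for the 13 genes with 2 or more (x axis, ordered by the mRNA difference), with the mRNA of the gene as a black bar. Red dots were called higher, blue dots lower and grey dots were not called; the Col19a1 and Col25a1 dots lie below 0 except 1 of Col19a1, and most dots of the other genes lie above 0.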

How the data were processed

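RNA of 8 spinal cord samples was hybridised to 1-colour Agilent arrays for mRNAs, lncRNAs and circRNAs. The deposited scanner files hold intensity values that Feature Extraction had background-subtracted and detrended within each array, per the file headers, with flag columns of 0 or 1. The submitters' processing notes name Agilent Feature Extraction 10.7 and limma. The authors' series table holds log2 values normalized between arrays and was used as an alternative. Positions on mm9 are per the file headers.

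Here log2 intensity minus each array's 75th percentile was taken, probes flagged well above background on 4 or more arrays were kept, and the brightest probe stood for a gene. Contusion and control were compared in limma 3.58.1 (R 4.3.3, lmFit and eBayes, two-sided, Benjamini-Hochberg over 89140 features). The same fit was run on simulated data with the means and SDs of these arrays and 200 changed features, far fewer than were called here. It called 28% of log2 changes of 0.5, 66% of those of 1, 72% of those of -1 and 94% of those of 2. Tables and figures were made with Python 3.11.15. Promoters are RefSeq's, of GRCm38.p6.

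One planned Schwann cell marker is not reported here. The members, gene lists and alternatives were chosen with earlier results of these data known. By rule, the text gives per-array values for 12 interstitial and vessel collagens, for the largest called changes of each class and for the 3 members on each side of the threshold, and it names 2 partners per list with any opposite call and 3 circRNAs per direction. Other genes, such as Lox, Serpinh1, Col14a1 and Col15a1, and the probe and promoter sequences were chosen after their values were seen.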

Additional observations from a re-analysis of the deposited data

How the results depend on the processing

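No called collagen gene changed sign under any alternative, and 15 of the 22 kept their call in all that could be fitted. Col11a1, never called, changed from -0.11 to 0.127 with the mean of its probes, to 0.0292 with slide as a block and to 0.0434 without control replicates 2 and 3. Collagen increases, 14 in all, numbered 11 to 22 when single arrays were left out, and 22 without control replicates 1 and 3 or without control replicates 2 and 3. Collagen decreases, 8 in all, numbered 7 to 10 without single arrays and 5 without control replicates 2 and 3. Partner increases, 43 in all, numbered 37 to 47 and decreases, 4 in all, 3 to 4 without single arrays, and without contusion replicates 1 and 2 the increases numbered 31 and the decreases 1. CircRNA increases, 26 in all, numbered 9 to 64 without single arrays, 16 with no filter on dim probes, 9 with slide as a block, 13 without contusion replicates 1 and 2 and 65 without control replicates 1 and 3. The cause of these moves was not tested, and the fits without control replicates 2 and 3 were chosen after seeing the data.

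Whether replicate numbers pair the samples was not settled. Arrays of the same number always lay on different slides, so the correlations below cannot tell pairing from slide. Deviations of same-numbered arrays correlated at -0.30 for number 1, -0.006 for number 2, 0.00 for number 3 and -0.05 for number 4, and no contusion array correlated best with the control of its own number. With the replicate block 15 collagen genes were called higher and 7 lower, with 40 and 4 partner genes and 23 and 20 circRNAs.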
